A study of Mus musculus with 16 samples.

Results

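Matrix metalloproteases (Mmp genes) and tissue inhibitors of metalloproteases (Timp genes) were followed as 10 genes: Mmp14, Mmp9, Mmp8, Mmp19, Mmp23, Mmp12, Mmp13, Timp1, Timp2 and Timp3. They were taken from the count table by matching its Ensembl identifiers to these symbols, so that 10 of 55421 gene rows were used, and all 10 had enough reads to be tested. The RNA came from macrophages sorted from lymph nodes of male C57B/6 mice, every one of which carried MOC2, a squamous cell carcinoma line implanted intradermally in the flank 2 weeks before. Sub-capsular sinus macrophages (SSMs, CD11b+ CD169+ CD11c-) and medullary sinus macrophages (MSMs, CD11b+ CD169+ CD11c+) were each sorted from tumor-draining nodes (tdLN) and from non-draining nodes (ndLN). Each of the 4 groups has 2 libraries, made from pools 1 and 2, with 2 mice in a pool and 2 tdLN or 6 ndLN. The paper counts 4 pools as biological replicates, one for each lane and library number, whereas the labels show 2 libraries per group. The label of 1 SSM library from tdLN carries no number, and it was taken as pool 1 because the other is numbered 2. The lanes agreed within sampling noise, so n is taken as 2 throughout. The ndLN were contralateral inguinal, axillary and brachial nodes of tumor-bearing mice, so no library comes from a mouse without a tumor, and the site of the node and its drainage cannot be told apart.

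Matrix metalloproteases are zinc-dependent endopeptidases that cut collagens, elastin, laminin and other proteins of the extracellular matrix, and also release growth factors and cytokines from matrix and cell surfaces. Most are secreted as inactive proenzymes, whereas Mmp14 (MT1-MMP) is held in the plasma membrane, is activated by furin-like convertases and acts at the cell front. Timp proteins bind the active site of the enzymes, and Timp2 also takes part in the activation of pro-Mmp2 at the cell surface together with Mmp14. In myeloid cells, Mmp8 and Mmp9 are best known as granule enzymes of neutrophils and Mmp12 as the elastase of macrophages. Production of these enzymes lets leukocytes move through basement membranes and collagen.

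The libraries held between 42972328 and 48130352 reads. The libraries labelled SSM had 8.47 to 15.1 CPM (reads per 1000000, with library sizes scaled by the TMM method) of Siglec1, the gene of the sort marker CD169, in ndLN and 59.2 to 70.04 CPM in tdLN. Those labelled MSM had 0.795 to 5.96 CPM of it and carried dendritic cell transcripts, with Xcr1 at 630.4 to 752 CPM and Flt3 at 672 to 852 CPM. Vsig4, a further macrophage marker, had 0 reads in every library. Of 8 macrophage genes with a mean normalized count above 100, 6 were higher in SSMs from ndLN than in MSMs from ndLN. The other 2 were higher in MSMs, Cd68 (means of 355 against 173 CPM) and Mertk (3.26 against 0.297 CPM). Of 8 conventional dendritic cell genes, 7 were higher in MSMs from ndLN. Among these, Ccr7 differed little, with means of 1653 CPM in MSMs and 1555 CPM in SSMs. Markers of T and innate-like lymphocytes summed to 1095 to 2867 CPM in SSMs and 55.5 to 167 CPM in MSMs, although CD3+ cells were gated out. Sums stayed low for 6 B cell genes (18.7 to 43.4 CPM), 8 fibroblast and stromal genes (7.40 to 41.2 CPM), 8 endothelial genes (40.5 to 90.8 CPM) and 6 plasmacytoid dendritic cell genes (59.8 to 123 CPM). In such bulk samples, fewer cells of a type and less RNA per cell cannot be told apart.

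A gene was called changed at an adjusted p-value below 0.01 (quasi-likelihood test of edgeR, adjusted by Benjamini-Hochberg over 21085 genes) when its mean normalized count over the libraries was above 100. These thresholds are those of the study, which states a Holm adjustment, so the adjusted p-values here are not the same quantity. Only 7 of the 10 genes had such a count, since Mmp13, Timp1 and Timp3 had means of 41.6, 51.03 and 16.6. Levels below are in CPM, and each group has n = 2 libraries. Log2 fold changes carry a standard error (SE), the absolute change divided by the square root of the test's F statistic. The p-values rest on the spread between pools, shared over the 4 groups and moderated by that of other genes (4.45 prior degrees of freedom). They do not reach beyond these pools of mice.

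**Figure D1:**
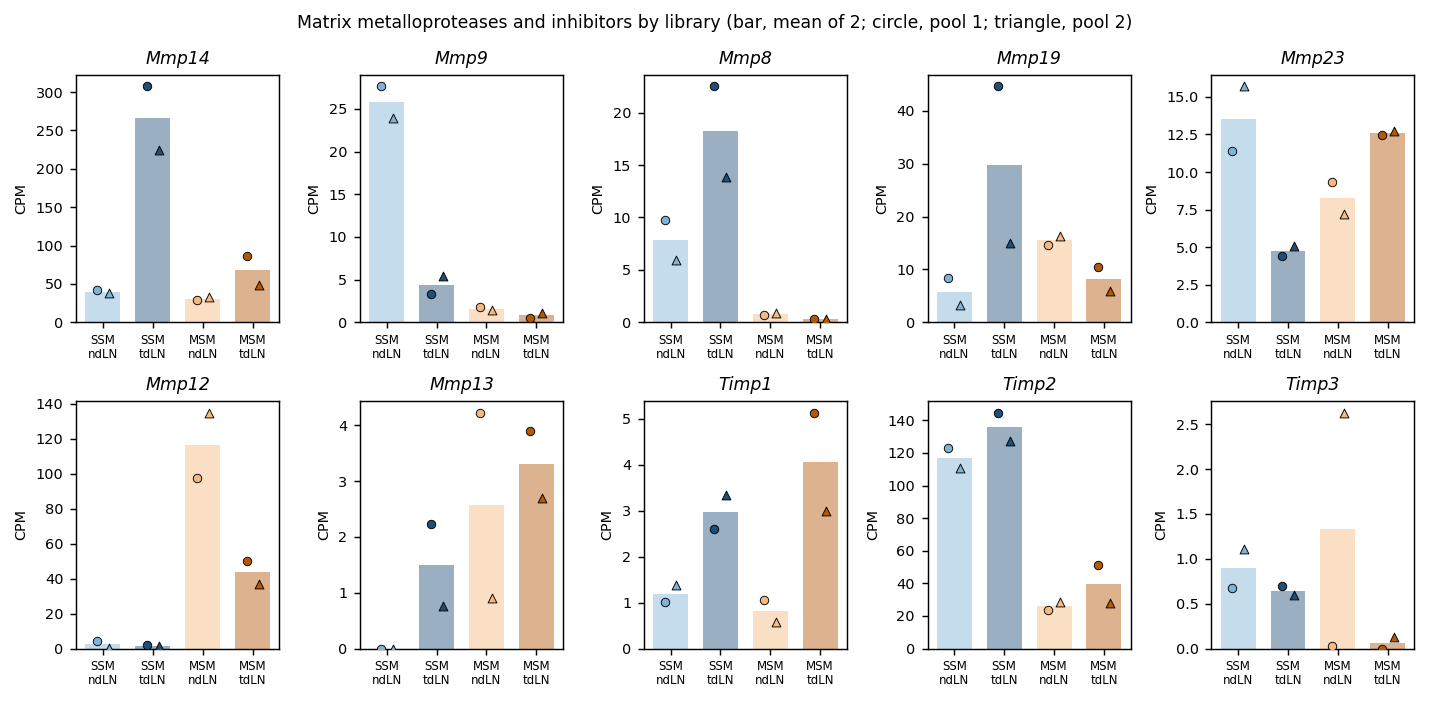
Level of each of the 10 genes in the 8 libraries, in CPM on a linear axis from 0 that differs between panels. Bars are the mean of the 2 libraries of a group, circles are pool 1 and triangles pool 2. Mmp14 stands highest in SSMs from tdLN, Mmp9 in SSMs from ndLN and Mmp12 in MSMs from ndLN.

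Levels were scaled by transcript length, which allows genes to be compared with each other. The leading protease of the set was Mmp9, Mmp12 or Mmp14, depending on the group. In SSMs from ndLN the highest Mmp gene of the set was Mmp9, at 7.29 ± 0.740 CPM per kb of exon (SD, n = 2). Mmp14 followed at 6.72 ± 0.554 CPM per kb and Mmp23 at 5.79 ± 1.31 CPM per kb. The libraries of these neighbours in the order overlapped. In SSMs from tdLN, Mmp14 led at 44.6 ± 9.84 CPM per kb, above Mmp19 at 8.44 ± 5.94 and Mmp8 at 7.51 ± 2.51 CPM per kb. The latter pair overlapped each other, whereas Mmp14 lay apart from both. In MSMs from ndLN the leading enzyme was Mmp12, at 16.05 ± 3.65 CPM per kb. Its libraries were separate from those of every other gene of the set. Of the set, MSMs from tdLN had Mmp14 first, at 11.4 ± 4.50 CPM per kb, followed by Timp2 at 10.1 ± 4.24 CPM per kb, with overlapping libraries. Mmp25, which is outside the set, had a higher mean than these leading proteases in SSMs from ndLN and MSMs from tdLN. It stood there at 9.63 ± 1.80 and 13.8 ± 3.53 CPM per kb.

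The balance of proteases and inhibitors within the set differed as well. Length-scaled levels of the 7 Mmp genes summed to 24.97 ± 2.50 CPM per kb in SSMs from ndLN and 64.6 ± 18.2 CPM per kb in SSMs from tdLN. The sum was 30.9 ± 2.84 CPM per kb in MSMs from ndLN and 26.7 ± 6.85 CPM per kb in MSMs from tdLN. For the 3 Timp genes it was 31.4 ± 1.87 and 38.4 ± 2.55 CPM per kb in SSMs of ndLN and tdLN. In MSMs of the same nodes it was 7.78 ± 0.655 and 14.7 ± 5.94 CPM per kb. Timp transcripts of the set thus exceeded its Mmp transcripts in both SSM libraries from ndLN and in no other library. This order depends on the choice of genes. Mmp25, left out of the sums, stood at 9.63 ± 1.80 CPM per kb in SSMs from ndLN, and adding it would reverse the order there. These sums are descriptions without a test, and Timp2 makes up most of every Timp sum.

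**Figure D2:**
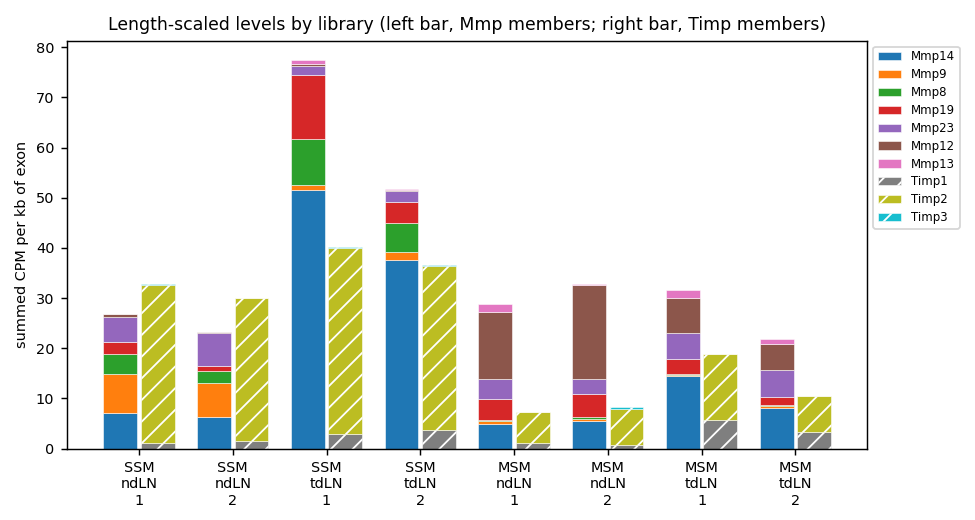
Stacked length-scaled levels, in CPM per kb of exon, for each library. The left bar of a pair stacks the 7 Mmp genes and the hatched right bar the 3 Timp genes. Mmp14 fills 51.6 and 37.7 CPM per kb of the Mmp bars of SSMs from tdLN, and Timp2 fills most of each Timp bar.

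SSMs and MSMs were first compared in ndLN, which asks how the subsets differ away from the tumor. Mmp9, Mmp8 and Timp2 were higher in SSMs and Mmp12 was higher in MSMs, 4 of the 7 genes above the count cut-off. Over all genes above that cut-off, 25.5% were called in this comparison. The median log2 fold change of the 7 genes was 0.71, against -0.06 over all genes above the cut-off.

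Mmp9, gelatinase B, which degrades type IV collagen of basement membranes, had 27.7 and 23.9 CPM in SSMs from ndLN and 1.77 and 1.45 CPM in MSMs from ndLN. Both SSM pools lay far above both MSM pools. The difference was 16.2-fold (log2 4.02, SE 0.358, adjusted p = 0.000240), and it remained past the cut-offs under all 16 alternative settings tried. T and innate-like lymphocyte markers, 11 genes, summed to 2436 and 2867 CPM in these SSMs and 128 and 167 CPM in these MSMs. For 10 mast cell and basophil genes the sums were 3138 and 2131 CPM against 672 and 692 CPM. Kit made up most of these MSM sums, at 606 and 614 CPM, and had 339 and 481 CPM in SSMs. It was the 1 gene lower in SSMs of the 9 on this list above the count cut-off, and 8 were higher. Tpsb2, as an example of those, had 723 and 396 CPM in SSMs and 0.538 and 1.94 CPM in MSMs. The part of either list in the Mmp9 difference was not tested.

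Mmp8, neutrophil collagenase, had 9.73 and 5.90 CPM in SSMs and 0.667 and 0.914 CPM in MSMs of the same nodes. The groups did not overlap, and SSMs were 9.53-fold higher (log2 3.25, SE 0.394, adjusted p = 0.000802). Neutrophil markers, 11 genes, moved in the same direction and summed to 84.03 and 313 CPM in SSMs and 8.69 and 16.8 CPM in MSMs, and their part in the result was not tested. Ly6g, whose protein was gated out, had no read in these 4 libraries. Without MSM ndLN pool 1, the adjusted p of Mmp8 was 0.0151.

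Timp2 was the most abundant gene of the set in SSMs from ndLN, with 123 and 111 CPM against 23.9 and 28.3 CPM in MSMs. SSMs exceeded MSMs 4.43-fold, with no overlap (log2 2.15, SE 0.253, adjusted p = 0.000826). Leaving out MSM ndLN pool 1 raised the adjusted p to 0.0137.

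Mmp12, macrophage elastase, showed the opposite pattern. It had 4.21 and 0.445 CPM in SSMs from ndLN and 97.5 and 135 CPM in MSMs from ndLN (log2 -5.68, SE 0.565, adjusted p = 0.000378). The SSM pools were far from each other, at 229 and 22 reads, yet both lay well under the MSM pools. Conventional dendritic cell markers, 8 genes, were likewise lower in SSMs, with sums of 1760 and 2574 CPM against 4539 and 4319 CPM in MSMs, and their part in the Mmp12 difference was not tested.

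Mmp13, collagenase 3, was not read once in either SSM library from ndLN, whereas MSMs from ndLN had 165 and 41 reads. Against a floor of 3 reads per library, it was at least 44.4-fold lower in SSMs (adjusted p = 0.00958), but its mean count lay under the count cut-off. Mmp12 and Mmp13 thus shared a direction, and they are neighbours in a protease cluster on chromosome 9 (mm10), with Mmp13 at chr9:7272514-7283331 and Mmp12 at chr9:7344381-7369499. Mmp8, which went the other way, lies in the same cluster at chr9:7558456-7568485, all on the plus strand.

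Because these neighbours differed in direction, their promoters were searched for letters known from protease promoters. RefSeq starts (GRCm38.p6) were found for 8 of the 10 genes, all but Mmp9 and Mmp19, with 10 promoters between them. The 250 bases before each start were read on both strands for TGANTCA, the AP-1 motif, AGGAAG, an Ets motif, and TATAAA, the TATA box. None of these letter strings contains another. AP-1 letters stood before 2 of the 10 starts, one of the 2 starts of Mmp12 and the start of Mmp13, against 6.75% of 32851 mouse promoters. Ets letters are frequent, in 29.5% of promoters, and TATA letters are in 12.4%. Ets letters stood before starts of Mmp14, Mmp8, Mmp12, Mmp13, Timp1 and Timp3. The stretches with AP-1 letters are shown because they belong to the pair of neighbours that were lower in SSMs, with the match in capitals and the last base next to the start. Both are on the plus strand, at chr9:7347290-7347373 for Mmp12 and chr9:7272439-7272513 for Mmp13.
Mmp12: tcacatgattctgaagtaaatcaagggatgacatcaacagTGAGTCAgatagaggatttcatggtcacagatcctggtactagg
Mmp13: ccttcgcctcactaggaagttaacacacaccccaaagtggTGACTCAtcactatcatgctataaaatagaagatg
The match begins 44 bases before the start in Mmp12 and 35 bases before it in Mmp13, where TATA letters follow at 16 bases. A match of letters is a description and not a binding site. The window before Mmp8 held none for AP-1 and 1 for Ets. Ets letters also stood before the other start of Mmp12, with 1 match, and before Mmp13, with 2. Those of Mmp13 begin at 109 and 62 bases, the latter in small letters in the stretch above.

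The other genes did not pass in ndLN. Mmp14 had 42.4 and 37.7 CPM in SSMs and 29.3 and 32.4 CPM in MSMs (log2 0.36, SE 0.233, adjusted p = 0.314). Mmp19, a secreted protease that cuts basement membrane proteins, had 8.35 and 3.21 CPM in SSMs against 14.6 and 16.4 CPM in MSMs (log2 -1.56, SE 0.437, adjusted p = 0.0380). Mmp23, a membrane-anchored protease with an unusual domain order, had 11.4 and 15.7 CPM against 9.36 and 7.18 CPM (log2 0.71, SE 0.265, adjusted p = 0.0983). For these genes the libraries of the subsets did not overlap, but the differences missed the cut-off. Timp1, the inducible soluble inhibitor, stood between 0.579 and 1.37 CPM in all 4 libraries. Timp3, the inhibitor bound to matrix, ranged from 0.0256 to 2.63 CPM, both extremes being MSM libraries.

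In tdLN, 4 of the 7 genes above the count cut-off again differed between the subsets, where 18.3% of all such genes were called. Mmp14, Mmp8 and Timp2 were higher in SSMs and Mmp12 was higher in MSMs, and the median log2 fold change was 1.81 against 0.01 over all genes above the cut-off. Mmp14 had 307 and 224 CPM in SSMs against 86.7 and 48.8 CPM in MSMs. That is 3.98-fold (log2 1.99, SE 0.225, adjusted p = 0.000951) with no overlap. Mmp8 had 22.5 and 13.9 CPM in SSMs, while MSMs had only 12 and 14 reads, or 0.291 and 0.308 CPM. This was the widest gap of the set in tdLN (log2 5.89, SE 0.427, adjusted p = 0.000133) and the one call that held with every library left out in turn.

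Timp2 (145 and 127 CPM in SSMs, 51.1 and 27.8 CPM in MSMs) differed by a log2 fold change of 1.81 (SE 0.247, adjusted p = 0.00221). Mmp12 (2.197 and 1.19 CPM in SSMs, 50.1 and 36.98 CPM in MSMs) differed by -4.68 (SE 0.609, adjusted p = 0.00181). Its direction was that seen in ndLN, in both pools. Mmp14, Timp2 and Mmp12 fell short of the adjusted p of 0.01 without SSM tdLN pool 1, without SSM tdLN pool 2 or without MSM tdLN pool 2, which left Mmp8 as the 1 gene called in each case, and Mmp12 fell short without MSM tdLN pool 1 as well.

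A further 3 genes missed the cut-off in tdLN at adjusted p-values of 0.0140 to 0.0229. Mmp9 had 3.27 and 5.41 CPM in SSMs and 0.533 and 1.10 CPM in MSMs (log2 2.38, SE 0.502, adjusted p = 0.0161). For Mmp19 the order of the subsets was the reverse of that in ndLN, with 44.6 and 14.97 CPM in SSMs above 10.5 and 5.88 CPM in MSMs (log2 1.78, SE 0.409, adjusted p = 0.0229). The order of Mmp23 was reversed too, with 4.39 and 5.07 CPM in SSMs below 12.5 and 12.7 CPM in MSMs (log2 -1.41, SE 0.289, adjusted p = 0.0140). Mmp13 was read in all 4 libraries of tdLN, at 0.756 to 3.90 CPM, and Timp1 at 2.601 to 5.14 CPM. Timp3 stayed at or below 0.695 CPM there.

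**Figure D3:**
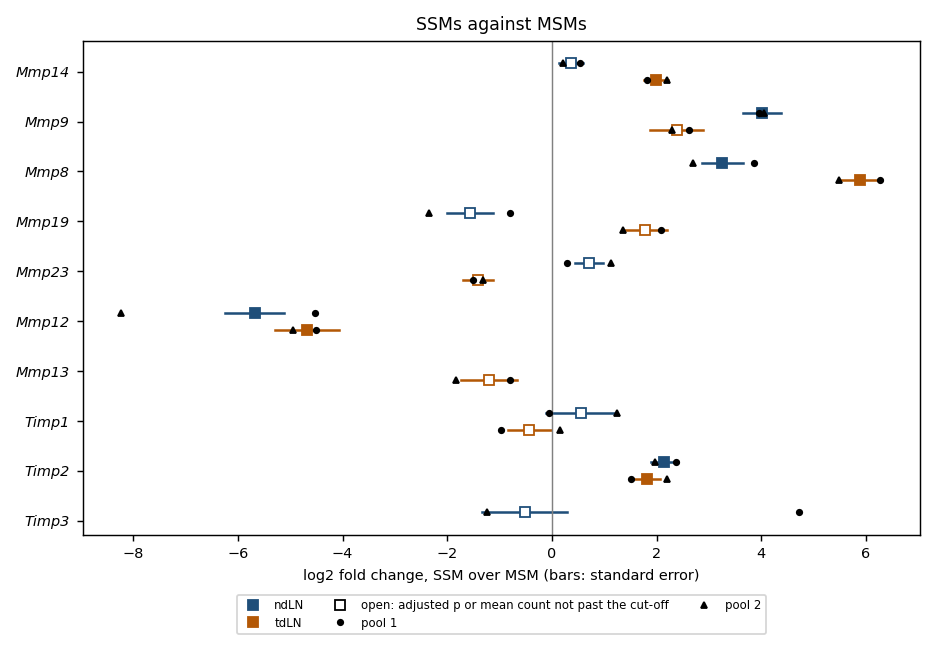
Log2 fold change of SSMs over MSMs for each gene in ndLN (blue) and tdLN (orange). Squares are fitted values with bars of 1 SE, filled where the gene passed both cut-offs, and black circles and triangles are pools 1 and 2 taken alone. Genes with a library at 0 reads (Mmp13 in ndLN, Timp3 in tdLN) are left out. Mmp8 and Timp2 lie right of 0 and Mmp12 left of 0 in both node types, while Mmp19 and Mmp23 change sides.

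The comparison of tdLN with ndLN within SSMs asks how these cells differ between a node that drains the tumor and nodes that do not. The study named Mmp14, Mmp19, Mmp8, Mmp23 and Mmp9 from this very comparison in the same libraries, so their values here are not independent evidence of a direction. Mmp14 rose and Mmp9 fell, 2 of the 7 genes above the count cut-off, where 6.4% of all such genes were called. The same SSM and ndLN libraries enter the subset comparisons above.

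Mmp14 had 42.4 and 37.7 CPM in SSMs from ndLN and 307 and 224 CPM in SSMs from tdLN. Both tdLN pools were far above both ndLN pools. The rise was 6.58-fold (log2 2.72, SE 0.233, adjusted p = 0.00161), and it was 7.26-fold in pool 1 and 5.96-fold in pool 2. Its gene lies on chromosome 14, at chr14:54431612-54445364 on the plus strand. The 250 bases before its RefSeq start, at chr14:54431348-54431597, are shown as the promoter of the one gene of the set called higher in tdLN, with the single Ets match in capitals.
Mmp14: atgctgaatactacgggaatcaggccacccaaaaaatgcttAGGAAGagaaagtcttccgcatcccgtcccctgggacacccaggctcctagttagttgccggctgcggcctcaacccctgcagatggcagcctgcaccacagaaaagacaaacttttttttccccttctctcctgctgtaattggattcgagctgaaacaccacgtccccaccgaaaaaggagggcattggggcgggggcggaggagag
Neither AP-1 nor TATA letters occur in this stretch.

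Macrophage and monocyte markers were higher too, with 5 of 8 macrophage genes and 1 of 5 monocyte genes above the count cut-off called. In SSMs the 10 macrophage genes summed to 9145 and 5967 CPM in ndLN and to 22342 and 15280 CPM in tdLN, a 2.49-fold higher mean. Lyz2 made up most of each sum, at 7938 and 5043 CPM in ndLN and 19307 and 12931 CPM in tdLN. Of the 8 macrophage genes above the count cut-off, 7 were higher in tdLN and 1 was lower, Cd209b, with means of 54.9 and 49.8 CPM. The sum of 5 monocyte genes went from 2581 and 1405 CPM to 4663 and 4589 CPM, a 2.32-fold higher mean. Reads of Mmp14 per read of a marker were higher in both tdLN pools than in both ndLN pools for 6 of the 8 macrophage genes with more than 3 reads in every SSM library, lower for 1 (Mertk) and overlapping for 1 (Siglec1). For the 5 monocyte genes the ratio was higher for 3 and overlapping for 2. These ratios were examined after the values were seen and were not tested, nor was the part of these markers in the Mmp14 rise.

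Mmp9 went from 27.7 and 23.9 CPM in SSMs from ndLN to 3.27 and 5.41 CPM in SSMs from tdLN. The groups were well apart, and Mmp9 fell 5.99-fold (log2 -2.58, SE 0.302, adjusted p = 0.00333). Lymphocyte and mast cell markers were lower in the same libraries, with 3 of 11 and 2 of 9 genes above the count cut-off called lower and 1 mast cell and basophil gene, Mcpt8, called higher. The 11 T and innate-like lymphocyte genes summed to 2436 and 2867 CPM in ndLN and 1095 and 1260 CPM in tdLN, a mean 2.25-fold lower. The 10 mast cell and basophil genes summed to 3138 and 2131 CPM in ndLN and 409.9 and 845 CPM in tdLN, a mean 4.199-fold lower. Reads of Mmp9 per read of a marker were lower in both tdLN pools for 10 of the 11 lymphocyte genes and overlapped between node types for the other, Cd163l1. Among the 10 mast cell and basophil genes the ratio was lower for 5 and overlapped for 5, the chymases Cma1 and Mcpt4 and the mast cell genes Cpa3, Kit and Tpsb2. These ratios too were examined after the values were seen, and the part of either cell type in the fall of Mmp9 was not tested.

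**Figure D4:**
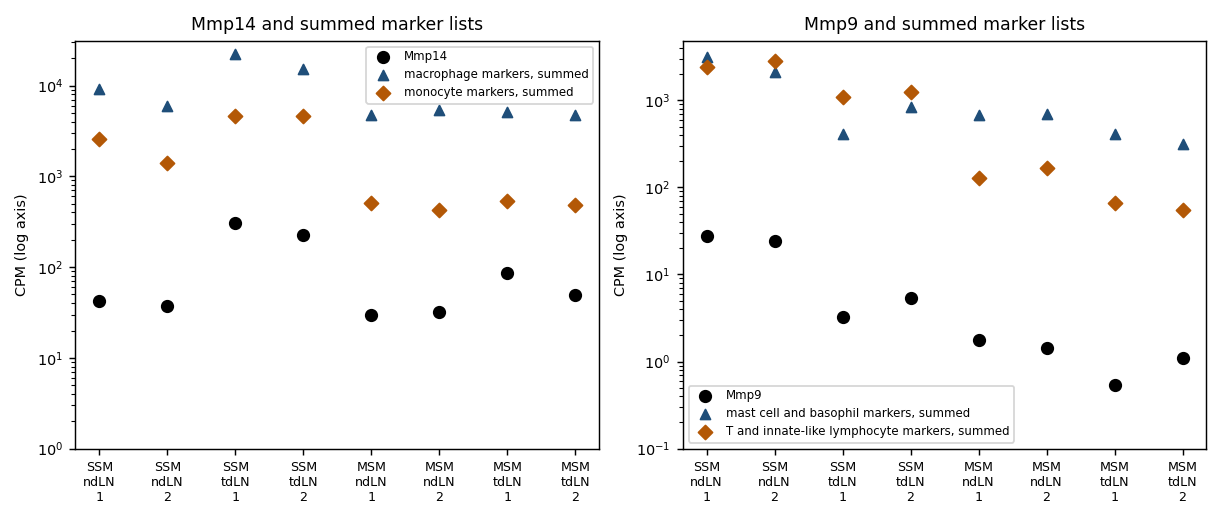
Left, Mmp14 beside the summed macrophage and monocyte markers, and right, Mmp9 beside the summed mast cell and basophil and T and innate-like lymphocyte markers, for each of the 8 libraries in CPM on a log axis. Mmp14 and both marker sums are higher in SSMs from tdLN than in SSMs from ndLN, and Mmp9 and both of its marker sums are lower.

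Neither call held with every library left out in turn. Leaving out any 1 of the 4 SSM libraries left 0 genes called in SSMs, with log2 fold changes of Mmp14 between 2.597 and 2.84 and adjusted p-values between 0.0129 and 0.0360. For Mmp9 the adjusted p lay between 0.0110 and 0.0754 with any of the 8 libraries left out. Directions did not change for either gene.

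Mmp19, Mmp8 and Mmp23 had adjusted p-values between 0.0157 and 0.0199 in SSMs and so missed the cut-off. Mmp19 had 8.35 and 3.21 CPM in ndLN and 44.6 and 14.97 CPM in tdLN (log2 2.32, SE 0.418, adjusted p = 0.0157). The higher pool was pool 1 in either node, and the groups did not overlap. Mmp19 shares 789 exon bases with Tmem198b on the opposite strand, and 24.7% of its transcript windows of 50 bases recur in other genes. As the strand setting of the counting is not given in the sources used here, reads of the pair may not be told apart. Tmem198b itself stood at 2.35 and 2.83 CPM in SSMs from ndLN and 6.61 and 5.80 CPM in SSMs from tdLN.

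Mmp8 had 9.73 and 5.90 CPM in ndLN and 22.5 and 13.9 CPM in tdLN (log2 1.22, SE 0.240, adjusted p = 0.0199). Neutrophil markers summed to 84.03 and 313 CPM in SSMs from ndLN and to 795 and 347 CPM in SSMs from tdLN. Their sum thus rose mainly in pool 1. Of the 7 neutrophil genes above the count cut-off, 1 was called higher, Csf3r. Per read of a neutrophil marker, Mmp8 was higher in both tdLN pools for 2 of 8 genes with more than 3 reads in every SSM library (Cxcr2 and Retnlg), lower for 1 (Csf3r) and overlapping for 5. These ratios were examined after the values were seen, and the part of neutrophils was not tested. Mmp23 had 11.4 and 15.7 CPM in ndLN and 4.39 and 5.07 CPM in tdLN (log2 -1.51, SE 0.283, adjusted p = 0.0177). Its tdLN pools were both below the ndLN pools.

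Mmp13, unread in SSMs from ndLN, had 100 and 33 reads in SSMs from tdLN. That is at least 25.9-fold higher against the floor of 3 reads per library (adjusted p = 0.0459), with a mean count under the cut-off. Timp1 had 1.011 and 1.37 CPM in ndLN and 2.601 and 3.35 CPM in tdLN (log2 1.33, SE 0.501, adjusted p = 0.162). Timp2 stood at 123 and 111 CPM in ndLN and 145 and 127 CPM in tdLN (log2 0.22, SE 0.234, adjusted p = 0.640). In Mmp12 the pools went opposite ways, from 4.21 to 2.197 CPM in pool 1 and from 0.445 to 1.19 CPM in pool 2. Timp3 stayed between 0.596 and 1.11 CPM in the 4 SSM libraries.

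In MSMs, 0 of the 7 genes passed between tdLN and ndLN, where 0.0501% of all genes above the count cut-off were called by edgeR. At an unadjusted p below 0.05 there were 5 of the 10 genes, and the DESeq2 Wald test called 1, Mmp14. The shares of all genes by these other criteria are not given, so these counts cannot be set against the 0.0501%. Mmp14 had 29.3 and 32.4 CPM in ndLN and 86.7 and 48.8 CPM in tdLN (log2 1.08, SE 0.232, adjusted p = 0.131). Timp1 had 1.05 and 0.579 CPM in ndLN and 5.14 and 2.99 CPM in tdLN (log2 2.32, SE 0.543, adjusted p = 0.162). Both genes were higher in tdLN in each pool without overlap.

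Mmp12 had 97.5 and 135 CPM in MSMs from ndLN and 50.1 and 36.98 CPM in MSMs from tdLN (log2 -1.46, SE 0.421, adjusted p = 0.238). Mmp19 had 14.6 and 16.4 CPM in ndLN and 10.5 and 5.88 CPM in tdLN (log2 -1.03, SE 0.426, adjusted p = 0.400). Their tdLN pools were lower in each case. Tmem198b, whose exons overlap those of Mmp19, had 10.97 and 13.5 CPM in MSMs from ndLN and 10.1 and 4.29 CPM in MSMs from tdLN. Mmp8 (log2 -1.42, SE 0.771, adjusted p = 0.520) and Mmp9 (log2 -0.95, SE 0.614, adjusted p = 0.593) rested on at most 69 reads per MSM library. Mmp23 had 9.36 and 7.18 CPM in ndLN and 12.5 and 12.7 CPM in tdLN (log2 0.61, SE 0.270, adjusted p = 0.434). Timp2 was at 23.9 and 28.3 CPM in ndLN and 51.1 and 27.8 CPM in tdLN, and Mmp13 at 4.23 and 0.914 CPM and 3.90 and 2.71 CPM, with overlap in both genes. Timp3 had 1 and 118 reads in ndLN and 0 and 6 reads in tdLN. It shares 1733 exon bases with Syn3 on the opposite strand.

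**Figure D5:**
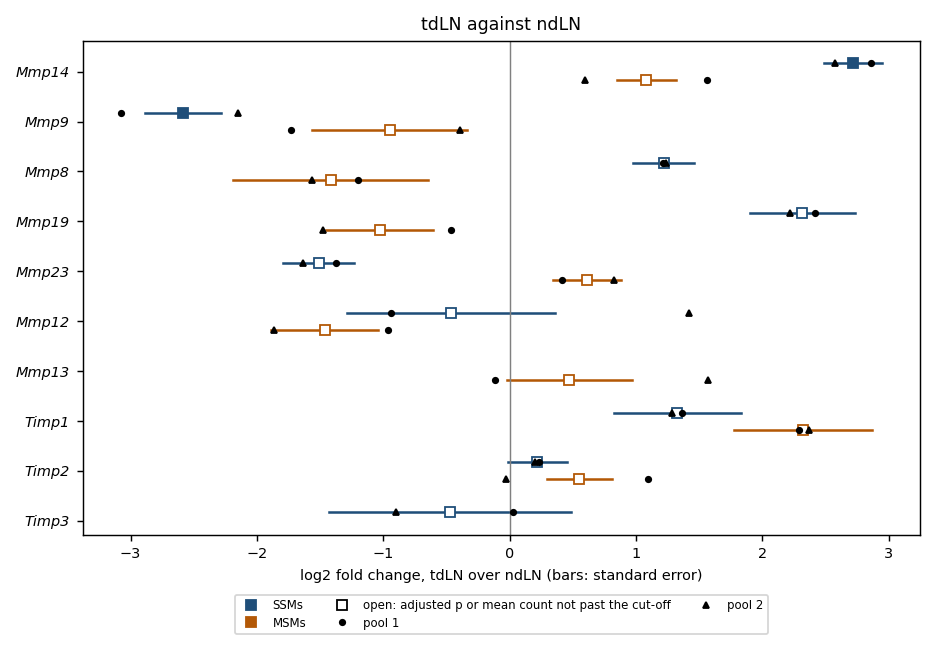
Log2 fold change of tdLN over ndLN for each gene in SSMs (blue) and MSMs (orange). Squares are fitted values with bars of 1 SE, filled where the gene passed both cut-offs (Mmp14 and Mmp9 in SSMs), and black circles and triangles are pools 1 and 2 taken alone. Mmp13 in SSMs and Timp3 in MSMs are left out because a library had 0 reads. Mmp8, Mmp19 and Mmp23 lie on opposite sides of 0 in the subsets.

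Whether the difference between nodes was itself different in the subsets was tested by the interaction of subset and node. By edgeR, 0 of the 7 genes passed, against 0.0801% of all genes above the count cut-off. At an unadjusted p below 0.05 there were 5 of the 10 genes, and the DESeq2 Wald test called 4, Mmp14, Mmp19, Mmp23 and Mmp8. Here too the shares of all genes by these criteria are not given, and the 0.0801% is no background for them. For Mmp14 the tdLN effect in SSMs minus that in MSMs was 1.63 on the log2 scale (SE 0.321, adjusted p = 0.0729). For Mmp9 the interaction was -1.63 (SE 0.727, adjusted p = 0.431), and for Timp2 it was -0.33 (SE 0.346, adjusted p = 0.831).

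Other genes of the same system were followed by list. Of 17 further Mmp and Timp genes, 13 could be tested and 1 had a mean count above 100, Mmp25, a protease anchored to leukocyte membranes. Mmp25 had 28.97 and 43.8 CPM in SSMs from tdLN and 60.1 and 86.5 CPM in MSMs from tdLN, a log2 fold change of -1.02 (SE 0.163, adjusted p = 0.00469). It was not called in ndLN or between node types.

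Among 16 activators, inhibitors and receptors of pericellular proteolysis, 11 had a mean count above 100. In ndLN, 4 of these were called higher and 1 lower in SSMs, with a median log2 fold change of 1.76. In tdLN, 5 were called higher and 1 lower, with a median of 1.92. Over all genes above the count cut-off, 25.5% were called in ndLN and 18.3% in tdLN, with medians of -0.06 and 0.01. The genes called higher included Cma1 and Mcpt4 in both node types. Cma1 and Mcpt4, chymases of mast cells that are also on the mast cell list, had 288 to 506 CPM and 249 to 504 CPM in SSMs from ndLN and at most 1.67 and 0.178 CPM in MSMs from ndLN. Serpinb2, an inhibitor of plasminogen activators, was higher in SSMs from ndLN (log2 4.74, adjusted p = 0.00313). Plat, the tissue plasminogen activator, was higher in MSMs, with SSM against MSM log2 fold changes of -2.47 in ndLN (adjusted p = 0.00158) and -3.01 in tdLN (adjusted p = 0.000901).

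Between node types in SSMs, 2 of those 11 genes were called, where 6.4% of all genes above the count cut-off were called. Lrp1, a receptor that clears protease and inhibitor complexes, was at 65.7 and 46.8 CPM in ndLN and 155 and 126 CPM in tdLN (log2 1.33, SE 0.183, adjusted p = 0.00609). Furin, the convertase that activates Mmp14, went the other way, from 759 and 714 CPM to 364 and 344 CPM (log2 -1.06, SE 0.125, adjusted p = 0.00343). Transcripts of Mmp14 and its convertase thus changed in opposite directions in the same libraries. Lymphocyte and mast cell markers were lower there too, and their part in the fall of Furin was not tested.

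The membrane proteases of the ADAM family and the secreted ADAMTS proteases had 6 of 11 genes above the cut-off. Adam19 was lower in SSMs than in MSMs (log2 -3.64 in ndLN, adjusted p = 7.91e-05, and -3.29 in tdLN, adjusted p = 0.000208), as was Adam8 (log2 -1.96 in ndLN and -2.42 in tdLN). In SSMs, Adam15 rose between ndLN and tdLN (log2 1.61, adjusted p = 0.00388) and Adam8 fell (log2 -0.92, adjusted p = 0.00580). In tdLN, Adam15 was also higher in SSMs than in MSMs (log2 1.26, adjusted p = 0.00398).

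For each of the 7 genes with a mean count above 100, the genes with the most similar profile were sought among the 9985 genes above that count, by the mean absolute difference of centred log2(CPM + 1) over the 8 libraries. Closest to Mmp14 were Lifr (0.20002), Clec4n (0.207) and Ms4a7 (0.208). Clec4n encodes dectin-2, a myeloid lectin, and had group means of 69.1 and 426 CPM in SSMs from ndLN and tdLN. Closest to Mmp8 were Ccr1 (0.166), a chemokine receptor of myeloid cells, Klra2 (0.178) and Trem3 (0.292). Timp2 lay nearest to Tspan5 (0.162), Ctsd (0.188), which encodes the lysosomal protease cathepsin D, and 6430548M08Rik (0.188).

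Mmp23 was nearest to Mllt3 (0.193), Ankrd33b (0.196) and Samd10 (0.197). Mmp9 had Rln3 (0.226), Espn (0.239) and Fzd4 (0.251) as nearest genes. For Mmp19 they were Nlrp3 (0.245), the inflammasome sensor, Il13ra1 (0.325) and Clec7a (0.347), which encodes dectin-1. Mmp12 had the least close neighbours, Pde1b (0.439), Dcstamp (0.465), a fusion receptor of dendritic cells and osteoclasts, and Klri1 (0.520). These distances describe 8 libraries and carry no test.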

How the data were processed

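Macrophage RNA was amplified with the SMART-Seq v4 kit and sequenced on an Illumina HiSeq. The authors deposited raw read counts per gene, without normalization, for 16 samples, 8 libraries on 2 lanes each. The submitters' processing notes name bcl2fastq 2.20.0.422, Trimmomatic 0.36, STAR 2.5.3a and GRCm38, and strand and counting mode are not given in the sources used here. Symbols, coordinates and exon lengths came from GENCODE M21 on the same build (mm10). The lanes of each library agreed within sampling noise (chi-square per degree of freedom 0.955 to 1.02) and were summed. Rows for 2 added sequences (6 reads, 1.66e-06% of all) were left out, and 0 columns of the table were unused.

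Genes with at least 10 reads in all and reads in at least 2 samples were kept (21085). Counts were normalized by TMM and fitted in edgeR 4.0.16 (R 4.3.3) with group and pool over all 8 libraries, by the quasi-likelihood test with Benjamini-Hochberg adjustment in place of the Holm adjustment that the paper states, which was not run. Called genes had an adjusted p below 0.01 and a mean normalized count above 100 on the scale of 1 lane, or 4.43 CPM. A fold against libraries at 0 reads used a floor of 3 reads per library. On simulated counts of 21085 genes for tdLN against ndLN in SSMs, 12 of 100 genes changed 2-fold and 84 of 100 changed 4-fold were called, with 3 false calls. Depth gave a floor of 0.0623 to 0.0697 CPM, which covers counting error only.

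Same-numbered pools share mice by the study's methods, so pool was a term in the model. The SSM library from tdLN without a number in its label was placed in pool 1, which is an inference. Deviations of same-numbered libraries from their group means correlated by 0.03 between SSMs of both nodes, -0.01 between the subsets in ndLN, 0.15 between the subsets in tdLN and -0.01 between MSMs of both nodes. Alternatives were the fit without the pool block, DESeq2 1.42.0 size factors, its Wald test and its likelihood ratio test on lanes, no low-count filter, edgeR's legacy fit, each lane alone, an adjusted p of 0.05 and each library left out.

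The 10 genes and the lists were chosen with earlier results of these data known. All 10 are named. From each list of regulators and related proteases at most 4 called genes with the largest fold change are named per comparison, plus other Mmp or Timp genes with a mean count above 100, and the 3 nearest genes to each Mmp or Timp gene above that count. Marker lists covered macrophages, monocytes, neutrophils, mast cells and basophils, T and innate-like lymphocytes, B cells, conventional and plasmacytoid dendritic cells, fibroblasts and endothelium. Figures were drawn with matplotlib 3.10.9. The published arrays and imaging were not analysed here.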

Additional observations from a re-analysis of the deposited data

Results flagged for a closer look

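For 3 genes, tumor drainage went with a higher level in one subset and a lower one in the other, in both pools each. Mmp19 was higher in tdLN in SSMs and lower in tdLN in MSMs, and the effects differed by 3.35 on the log2 scale (SE 0.596, adjusted p = 0.0571 by edgeR's quasi-likelihood test). Mmp8 likewise was higher in SSMs and lower in MSMs, by a difference of 2.63 (SE 0.798, adjusted p = 0.205), with 12 to 41 reads in the MSM libraries. Mmp23 was lower in tdLN in SSMs and higher in MSMs, by a difference of -2.12 (SE 0.392, adjusted p = 0.0616). None of these differences passed an adjusted p of 0.01 by that test, whereas the DESeq2 Wald test called all 3. The genes were singled out because the subsets moved in opposite directions, and no cause was tested. Tmem198b, which overlaps Mmp19 on the opposite strand, was also higher in tdLN in SSMs and lower in tdLN in MSMs, in both pools. Its part in the Mmp19 values was not tested.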

How the results depend on the processing

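The 4 genes called between the subsets in ndLN were 5 by the DESeq2 Wald test and at an adjusted p of 0.05, 6 by the likelihood ratio test, 3 without MSM ndLN pool 1 and 4 under the other alternatives run. In tdLN, 4 genes became 7 by the Wald test, by the likelihood ratio test on lanes and at an adjusted p of 0.05, and between 1 and 5 with a library left out. For tdLN against ndLN in SSMs, 2 genes became 1 (Mmp14) in the legacy fit, 4 by the Wald test, 5 by the likelihood ratio test and 5 at an adjusted p of 0.05, and between 0 and 2 with a library left out. For MSMs, 0 became 1 and 5 by the Wald and likelihood ratio tests, and for the interaction 0 became 4 and 5. The likelihood ratio test counts lanes as samples. Shares over all genes are given for the main fit only, so the counts under the alternatives have no background beside them. Without the pool block the counts were 4, 6, 3, 0 and 0, so the block added no call over the unpaired fit. Of 800 fold changes under the alternatives, 722 kept their direction and their side of the cut-off and 12 reversed. Timp3 between the subsets in ndLN, -0.52, became 0.54 in the legacy fit, 0.82 by the Wald test and 0.51 by the likelihood ratio test. With a library left out, values crossed 0 for Timp3 (-1.36 to 4.74) between the subsets in ndLN, Timp1 (-0.88 to 0.072) between them in tdLN, Mmp12 (-1.30 to 1.92) and Timp3 (-1.41 to 1.014) between nodes in SSMs, Mmp13 (-0.044 to 1.37) and Timp3 (-7.99 to 1.09) between nodes in MSMs, and Timp2 (-0.72 to 0.11) and Timp3 (-1.55 to 7.53) in the interaction. None of these was called, and the cause was not tested. With 1 library left in a group, that library is assumed to vary like the others.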
